A study of Mus musculus with 13 samples.

Results

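RNA recovered with a control immunoglobulin (IgG) was set against total RNA of wild-type mouse embryonic fibroblasts, to ask which RNAs make up the background of an RNA pull-down. The comparison holds 5 of the 13 libraries of the series. They were taken by their titles, as 3 IgG immunoprecipitation libraries (IgG IP, replicates 1 to 3) against 2 wild-type total RNA libraries (WT total). WT total 1 is the wild-type line made beside the IMP1 knockout, and WT total 2 the one beside the IMP2 knockout. The series compares the RNA clients of IMP1 and IMP2, encoded by Igf2bp1 and Igf2bp2, which are related RNA-binding proteins of the cytoplasm. All cells are labelled as mouse embryonic fibroblasts of embryonic day 12.5, connective tissue cells grown from embryos in serum. The total RNA libraries carry the genotype wild type. The IgG IP libraries carry no genotype label, and 1 treatment text naming deletion of IMP1 or IMP2 stands on every sample alike. The other libraries are 3 IMP1 pull-downs (IMP1 IP), 3 IMP2 pull-downs (IMP2 IP), and 1 total RNA library each of IMP1 and IMP2 knockout cells.

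In RNA immunoprecipitation, beads carrying an antibody are mixed with a cell extract, washed, and the RNA that stays on them is sequenced. Non-specific IgG binds no chosen protein, so the RNA found with it is whatever sticks to beads, tube or antibody, and it is the level that a specific pull-down has to exceed. Total RNA shows what the cell holds. Where RNA is selected by its poly(A) tail, messages are kept and most small structured RNAs and histone messages, which lack a tail, are lost. The labels do not say whether the RNA of these libraries was selected in this way. Some long non-coding RNAs stay in the nucleus, where they are bound to chromatin or to nuclear bodies.

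The files gave read counts for 43629 genes. Gene counts per library were 11840189 to 14548720 in IgG IP and 14756745 to 17225308 in WT total, so that 3 counts, the most that a count of 0 allows, were 0.206 to 0.253 CPM (a gene's counts over all gene counts of its library, on the usual CPM scale) in IgG IP and 0.174 to 0.203 CPM in WT total. These floors cover counting error only. CPM are shares within a library, so they do not show how much RNA each pull-down recovered. A higher CPM in IgG IP than in another pull-down is a higher share, not a larger amount. The IgG IP libraries were closer to each other than the wild-type ones were, with a chi-square per gene of 1.14 to 1.67 between IgG IP replicates and 22.3 between the WT total libraries. No labels say that replicates came from separate cultures, so p-values measure only the spread between these libraries, which may be technical. The test used the same variance for both groups in each gene. The SEs may therefore understate the spread of WT total, whose libraries come from different lines.

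The IgG IP and WT total libraries also differed in genes of the sex chromosomes, which bear on the source of the cells. Ddx3y, a Y-linked RNA helicase, had 0.144, 0 and 0 CPM in IgG IP and 50.96 and 111.8 CPM in WT total, and Eif2s3y, a Y-linked translation factor, had 0 counts in all IgG IP libraries against 22.97 and 49.29 CPM in WT total. Xist, the RNA that coats the inactive X chromosome of female cells, had 752.4, 716.6 and 710.1 CPM in IgG IP and 4.41 and 0 CPM in WT total. The IMP1 and IMP2 IP libraries lacked the Y-linked genes as well (Ddx3y averaged 0.0185 and 0 CPM) and held Xist at 107.9 and 60.31 CPM. The labels do not give the source of the IP cells, so for a difference between IgG IP and WT total the cells and the pull-down cannot be told apart. Values of IMP1 IP and IMP2 IP, which also lacked the Y-linked genes, are given beside most of the gene groups.

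The records of a library, the alignments that the counting program tallied, fell differently in the groups. Records assigned to no annotated feature, called outside genes below, made up 25.2%, 24.2% and 24.5% in IgG IP and 4.43% and 4.71% in WT total. The difference was 20.03 percentage points. The feature type used in counting is not given, so records in introns may be among them. Records that overlapped more than 1 gene were 6.17% ± 0.253 (SD, n = 3) in IgG IP and 1.74% ± 0.012 (n = 2) in WT total. The groups did not overlap in either class.

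Records without a unique alignment went the other way, at 17.28% ± 0.0482 (SD, n = 3) in IgG IP and 39.95% ± 1.31 (n = 2) in WT total. Records counted in a gene made up similar shares, 51.95% ± 0.294 in IgG IP and 53.74% ± 1.13 in WT total. Each class separated the groups as far as the design allows, with an exact 2-sided permutation p of 0.2, which is the smallest that 3 against 2 libraries can give (adjusted over the tally classes, 0.2). In the other pull-downs, records outside genes were 7.56% ± 0.118 in IMP1 IP and 5.04% ± 0.296 in IMP2 IP (SD, n = 3 each), and records without a unique alignment were 22.1% ± 0.928 and 27.49% ± 0.884. No records were tallied as unaligned or of low quality in any library.

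**Figure D1:**
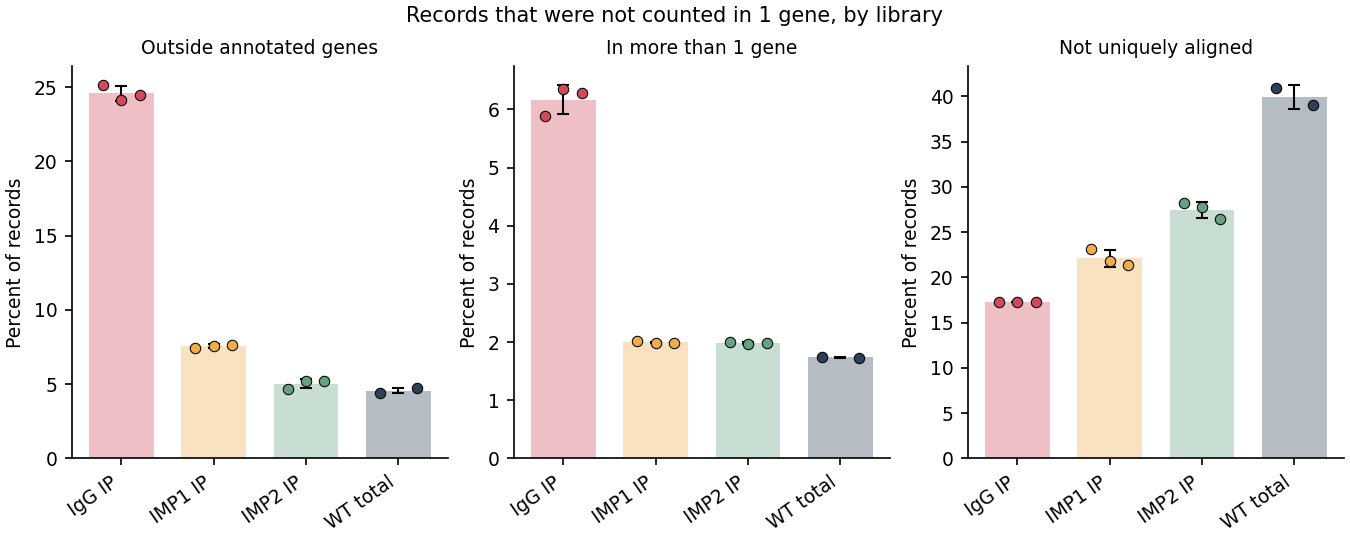
Percent of all records in 3 tally classes (vertical axes), for IgG IP, IMP1 IP, IMP2 IP and WT total; points are libraries, bars are group means and error bars are SDs. IgG IP stands above the other groups for records assigned to no annotated feature (24.6%, titled outside annotated genes) and in more than 1 gene (6.17%). It stands below them for records without a unique alignment (17.28%).

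Across genes, 15578 passed edgeR's expression filter, which asks for about 0.687 CPM in 2 libraries, and most differed. At an adjusted p under 0.05 in edgeR's quasi-likelihood test, 6763 genes (43.4%) were higher and 6875 (44.1%) were lower in IgG IP than in WT total, and the libraries of the groups did not overlap for 14278 genes (91.7%). Of the genes called, 4913 higher and 4883 lower genes changed at least 2-fold, and 1905 and 1811 at least 8-fold. The median log2 fold change over all genes tested was -0.01. The filter let 2121 genes through by their level in IgG IP alone and 1762 by their level in WT total alone. The filter thereby favoured a difference in such genes, though not all of them were called. Of the 11648 that reached its level in both groups, 40.7% were higher and 44.3% lower. For gene groups made up largely of the first kind, levels are given in place of counts of calls. Scaling by total counts moved that median by -0.19 and left 6234 higher and 7478 lower, so that 45.5% of calls were higher in place of 49.6%.

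**Figure D2:**
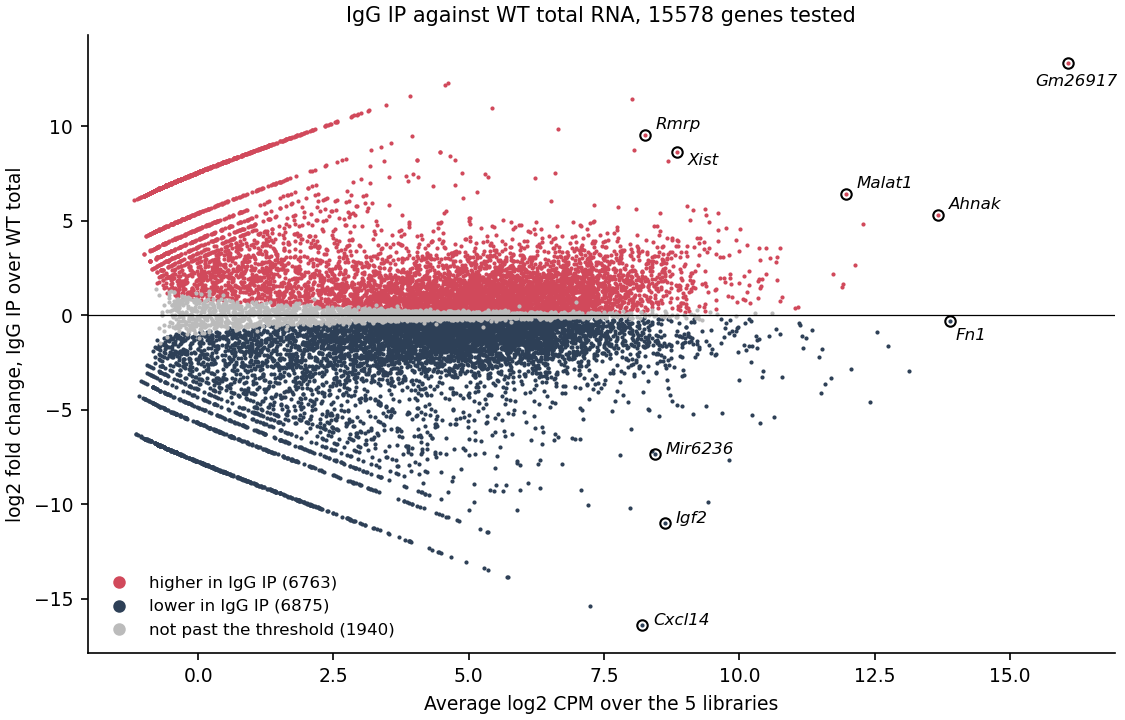
Log2 fold change of IgG IP over WT total (vertical axis) against the average log2 CPM of the 5 libraries (horizontal axis), 1 point a gene; red, higher in IgG IP (6763), dark blue, lower (6875), grey, not past the threshold (1940). Calls lie on both sides at every level, with Gm26917 at the upper right and Fn1 near 0; the slanted lines at the left are genes with 0 or a few counts in a group, whose fitted fold depends on the prior count.

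In IgG IP, 44 to 51 genes took 25% of the counts and 514 to 533 genes took 50%. In WT total, 71 to 86 genes took 25% and 616 to 666 genes took 50%. Of the 15 genes with the most reads in IgG IP, 12 were higher than in WT total and 3 were lower, beside 43.4% and 44.1% of all genes tested. Picking genes by their IgG IP level favours higher calls, so this count is a description only. The 15 were Gm26917, Ahnak, Fn1, Plec, Myh9, Malat1, Hspg2, Flna, Lrp1, Col1a2, Col1a1, Macf1, Glg1, Flnc and Hsp90ab1, of which most encode large structural or matrix proteins.

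First among them stood Gm26917, a predicted gene whose locus is known to collect reads of ribosomal RNA. It had 103391, 112626 and 111024 CPM in IgG IP and 11.72 and 11.9 CPM in WT total. A single locus therefore took 10.3% to 11.3% of the gene counts of each IgG IP library, and the groups were far apart (log2 fold change 13.36, SE 0.179, adjusted p = 4.54e-11). In the other pull-downs it averaged 4577 ± 621 CPM in IMP1 IP and 1164 ± 276 CPM in IMP2 IP (SD, n = 3 each), so that IgG IP was higher by 4.42 and 6.73 on the log2 scale.

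The other loci listed as collectors of ribosomal RNA reads were lower in IgG IP than in WT total, 4 of 4, beside 44.1% of all genes tested. Mir6236, annotated as a microRNA, had 5.54, 5.15 and 4.12 CPM in IgG IP and 866.9 and 980.0 CPM in WT total (log2 fold change -7.36, SE 0.114, adjusted p = 6.21e-11). Gm15564 (-6.50), Gm42418 (-4.60) and Lars2 (-4.79), a mitochondrial leucyl-tRNA synthetase gene, moved the same way. Lars2 stood at 40.48, 36.06 and 41.58 CPM in IgG IP and 1142 and 1347 CPM in WT total. Mir6236 averaged 23.65 CPM in IMP1 IP and 6.55 CPM in IMP2 IP, and Lars2 82.39 and 54.27 CPM. Of all 5 collectors, 3 were lower in IgG IP than in IMP1 IP and 1 higher, beside 31.7% and 31.9% of all genes. Against IMP2 IP, 0 were lower and 1 higher, beside 40.3% and 37.3% of all genes. Reads of repeated ribosomal loci can be split between copies, so these values are uncertain. When all 5 collectors were left out, 6709 genes were higher and 6860 lower.
The mature sequence that RefSeq gives for Mir6236 is shown because its locus ran opposite to Gm26917. It lies on chr9:110281353-110281371, plus strand, of GRCm38.p6, and 15 of its 19 bases are G or C (the seed, bases 2 to 8, in capitals).
mmu-miR-6236: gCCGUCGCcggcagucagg

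Long non-coding RNAs that stay in the nucleus were mostly higher in IgG IP. Of 18 on the list, 14 passed the expression filter, 11 were higher and 3 lower, against 43.4% higher and 44.1% lower of all genes tested. Of the 12 that reached the filter's level in both groups, 9 were higher and 3 lower. Their summed level was 8016 to 8283 CPM in IgG IP and 979.3 to 1092 CPM in WT total. Malat1, an RNA of nuclear speckles, supplied most of it. The gene lies on chr19:5795690-5802672 (GRCm38.p6, RefSeq). Malat1 had 6390, 6194 and 6313 CPM in IgG IP and 79.42 and 85.86 CPM in WT total (log2 fold change 6.44, SE 0.099, adjusted p = 6.21e-11).

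Kcnq1ot1 (chr7:143213111-143296547), an imprinted RNA that silences neighbouring genes, had 122.2, 116.1 and 120.0 CPM in IgG IP and 1.08 and 0.697 CPM in WT total (7.26, SE 0.124, adjusted p = 9.9e-11). Every IgG IP library was above both WT total libraries for these RNAs. Neat1, the scaffold of paraspeckles, was closer, at 702.5, 683.7 and 689.4 CPM in IgG IP and 243.4 and 359.2 CPM in WT total (1.38, SE 0.145, adjusted p = 9.48e-06). Airn, an imprinted antisense RNA, Ftx and Jpx, RNAs of the X-inactivation centre, and Dleu2 were higher by 2.25, 2.74, 3.01 and 3.16 on the log2 scale. Tug1 (0.78) and Pvt1 (0.73) changed least among the higher ones.

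The 3 lower RNAs all come from the imprinted Dlk1-Dio3 domain. Rian had 36.31, 35.56 and 32.51 CPM in IgG IP and 440.7 and 416.3 CPM in WT total (log2 fold change -3.44, SE 0.0647, adjusted p = 1.52e-10). Meg3 (-1.199) and Mirg (-1.74) were also lower. Strand use in counting is unknown, so reads of antisense RNAs such as Kcnq1ot1 and Airn cannot be separated from those of the genes they overlap. Over all RefSeq long non-coding RNAs, 299 of the 594 tested passed through IgG IP alone and 62 through WT total alone. Of the 227 at the filter's level in both groups, 84 were higher and 68 lower, beside 40.7% and 44.3% of all genes at that level. The class took 1.05% to 1.08% of gene counts in IgG IP and 0.484% to 0.554% in WT total.

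These RNAs were mostly higher in IgG IP than in the other pull-downs as well. At the same threshold within the 9 IP libraries, where 31.9% of 14076 genes were higher in IgG IP than in IMP1 IP and 31.7% lower, 12 of the 14 were higher and 1, Tug1, was lower. Against IMP2 IP, where 37.3% of genes were higher and 40.3% lower, 14 of 14 were higher, 13 of them at the filter's level in both pull-downs. Neat1 averaged 691.9 CPM in IgG IP, 58.78 CPM in IMP1 IP and 34.66 CPM in IMP2 IP. Meg3, lower than in WT total, was higher in IgG IP than in IMP1 IP by 2.14 and than in IMP2 IP by 2.79 on the log2 scale. Xist was higher by 2.60 and 3.75 in these comparisons, among libraries that all lack the Y-linked genes.

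**Figure D3:**
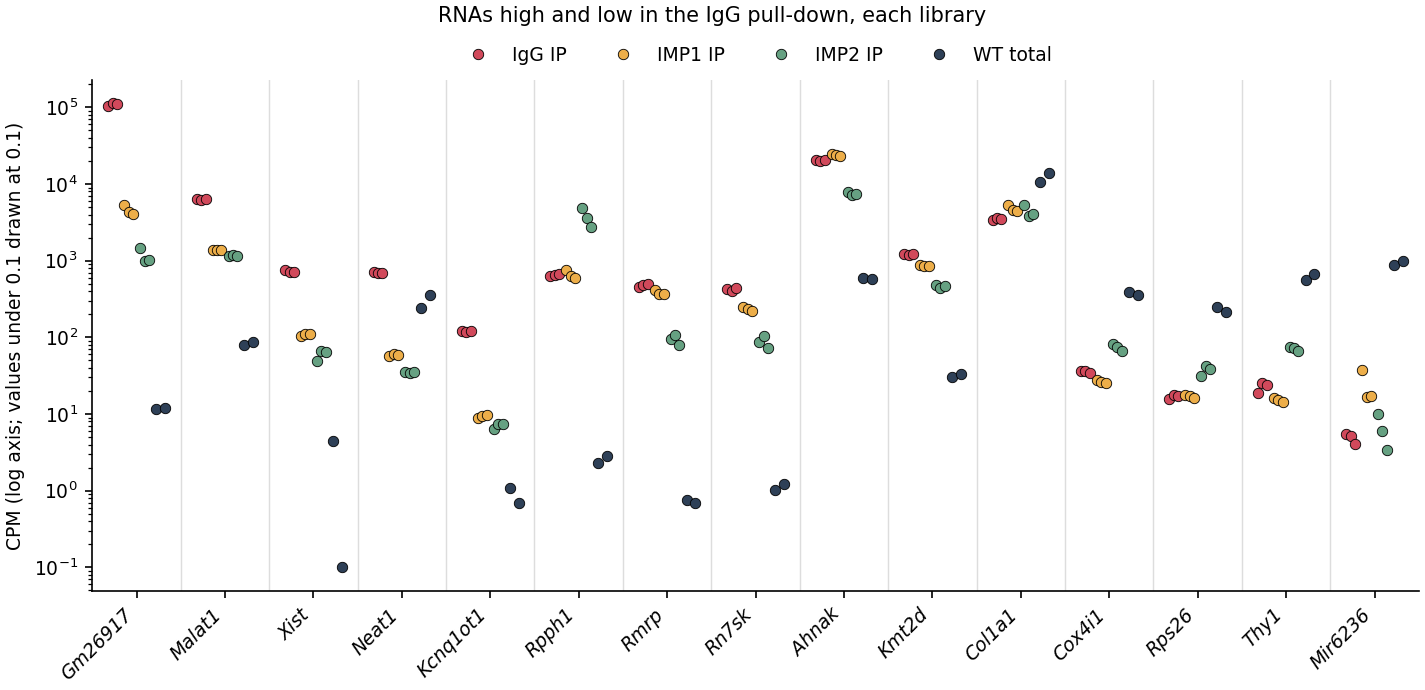
Level in CPM (log axis, values under 0.1 drawn at 0.1) of 15 genes in each library of IgG IP, IMP1 IP, IMP2 IP and WT total, in that order from left to right within a gene; each point is a library. Gm26917, Malat1, Xist, Neat1 and Kcnq1ot1 are highest in IgG IP, Rpph1 is highest in IMP2 IP, and Col1a1, Cox4i1, Rps26, Thy1 and Mir6236 are highest in WT total.

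Small structured RNAs, made mostly by RNA polymerase III or processed from introns, differed widely in level among themselves. Of 16 listed RNAs of ribonucleoprotein machines, 8 passed the filter, 5 of them through IgG IP alone, and 5 others had 0 counts in all 5 libraries. Rmrp, Rn7sk and Rpph1 held nearly all of their counts in IgG IP, and no other member was above 2.75 CPM in any of its libraries. The summed level of the list was 1526 to 1603 CPM in IgG IP and 4.27 to 5.11 CPM in WT total. Rmrp (chr4:43492785-43493059), the RNA of ribonuclease MRP, had 460.5, 488.7 and 495.4 CPM in IgG IP and 0.745 and 0.697 CPM in WT total (log2 fold change 9.56, SE 0.118, adjusted p = 4.54e-11).

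Rn7sk (chr9:78175302-78175633), which holds a transcription elongation factor inactive, had 424.9, 406.0 and 435.4 CPM in IgG IP and 1.02 and 1.22 CPM in WT total (8.73, SE 0.11). Rpph1 (chr14:50807447-50807771), the RNA of ribonuclease P, had 630.9, 660.4 and 663.1 CPM in IgG IP and 2.304 and 2.845 CPM in WT total (8.16, SE 0.109). No library of IgG IP came near the WT total ones for these RNAs. Terc, the telomerase RNA, and Rny3, a Y RNA, passed the filter through IgG IP alone, at 1.94 to 2.52 CPM and 0.935 to 1.27 CPM in IgG IP.

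The list was also present in the specific pull-downs, at sums of 1184 to 1433 CPM where IMP1 was pulled down and 2891 to 5088 CPM where IMP2 was. Rpph1 supplied most of the second sum. It averaged 651.5 CPM in IgG IP, 659.3 CPM in IMP1 IP and 3757 CPM in IMP2 IP (log2 fold change -2.35 against IMP2 IP, adjusted p = 2.59e-13, and -0.17 against IMP1 IP, adjusted p = 0.239).

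Guide RNAs direct the modification of other RNAs. Of 9 small Cajal body RNAs, 4 passed the filter, all through IgG IP alone, and the list summed to 87.36 to 94.26 CPM in IgG IP and 0.0581 to 0.474 CPM in WT total, against 22.15 to 30.73 CPM for the IMP1 pull-down and 7.72 to 10.75 CPM for the IMP2 one. Scarna2 supplied most of it, at 64.14, 73.31 and 72.79 CPM in IgG IP and 0.0678 and 0 CPM in WT total. The wild-type libraries held 1 count of Scarna2 between them, so the ratio of 2240 has a 95% counting interval of 401 to 88400. Scarna6, at 0 counts in WT total, had 14.16, 12.08 and 11.07 CPM in IgG IP. Of 121 small nucleolar RNAs, 33 passed the filter, 31 of them through IgG IP alone. They summed to 97.14 to 100.5 CPM in IgG IP and 18.58 to 22.16 CPM in WT total, with 50.62 to 55.65 CPM for the IMP1 pull-down and 12.87 to 17.43 CPM for the IMP2 one. Of the 2 at the filter's level in both groups, 1 was higher and 1, Snord104, lower, at 0.935, 1.01 and 1.03 CPM in IgG IP and 2.304 and 2.38 CPM in WT total. Snora43, the member that met the level set for naming, had 12.44, 14.27 and 12.72 CPM in IgG IP and 6.57 and 8.59 CPM in WT total (0.97, SE 0.153, adjusted p = 0.000192). Another entry with the symbol Snora43 had 0 counts in both groups. By RefSeq class, small nucleolar RNAs took 0.0209% to 0.021% of gene counts in IgG IP and 0.00218% to 0.00264% in WT total, and small nuclear RNAs 0.0488% to 0.0519% in IgG IP and 0.000237% to 0.000313% in WT total.

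The spliced transcripts that host small nucleolar RNAs did not follow them. Of 11 host genes tested, 2 were higher and 8 lower (median log2 fold change -0.34), beside 43.4% and 44.1% of all genes tested. Their sum was 306.7 to 316.2 CPM in IgG IP and 506.9 to 550.9 CPM in WT total. Against IMP1 IP, 5 were higher and the other 6 did not pass, where 31.9% of all genes were higher and 31.7% lower. Against IMP2 IP, 8 were higher and 1 lower, beside 37.3% and 40.3% of all genes. Gas5, a host with a short-lived spliced product, had 80.24, 76.69 and 68.94 CPM in IgG IP and 215.3 and 258.2 CPM in WT total (-1.47). Snhg18 (-3.14) and Snhg6 (-1.94) were lower, and Snhg17 (1.82) and Snhg14 (1.62) higher. Counts of a guide RNA and of the intron it lies in can overlap.

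Replication-dependent histone genes, whose messages end in a stem-loop in place of a poly(A) tail, passed the filter in 46 cases, 35 of them through IgG IP alone. Of the 11 at the filter's level in both groups, 5 were higher and 4 lower, beside 40.7% and 44.3% of all genes at that level. Hist1h1a and Hist1h1b, linker histones, are among those that passed through IgG IP alone. Hist1h1a had 39.55, 40.29 and 43.3 CPM in IgG IP and 0.136 and 0.116 CPM in WT total (log2 fold change 8.44). Hist1h1b had 41.92, 47.55 and 42.0 CPM in IgG IP and 0.136 and 0.174 CPM in WT total (8.23). The lower members were Hist1h2bc (-3.67), Hist3h2a (-2.27), Hist1h1c (-1.60) and Hist1h4i (-1.03).

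The summed level of the list was 435.5 to 459.8 CPM in IgG IP and 277.8 to 315.5 CPM in WT total. Most of the WT total sum came from Hist1h1c and Hist1h2bc, at 138.4 and 169.6 CPM and at 100.7 and 109.0 CPM. Histone copies are near identical, so the split of reads between them is uncertain. The list summed to 563.8 to 611.1 CPM in the IMP1 pull-down and 253.7 to 318.3 CPM in the IMP2 one. Against IMP2 IP, 40 reached the filter's level in both pull-downs, 37 of them higher in IgG IP and 1 lower. Against IMP1 IP, 10 of 46 were higher and 16 lower, a balance that upper quartile scaling turned to 15 and 13.

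Protein-coding genes made up 86.2% to 87% of the gene counts in IgG IP and 97% to 97.1% in WT total. Genes of giant proteins were higher in 32 of 34 (median log2 fold change 3.15), beside 43.4% of all genes tested. They took 51301 to 51978 CPM of IgG IP against 4468 to 5037 CPM of WT total. Ahnak, a large scaffold protein of the cell cortex, had 20349, 19799 and 20305 CPM in IgG IP and 595.0 and 570.1 CPM in WT total (5.30, SE 0.0959, adjusted p = 1.27e-10). Plec, which links intermediate filaments to junctions, had 7511, 7758 and 7766 CPM in IgG IP and 306.7 and 311.6 CPM in WT total (4.82, SE 0.0871).

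Syne2 (5.70), which ties the nucleus to the cytoskeleton, and Mdn1 (5.62), a ribosome assembly factor, rose furthest. Mdn1 had 1024, 1033 and 1026 CPM in IgG IP and 23.79 and 23.69 CPM in WT total. The lower members were Dmd, the dystrophin gene (-7.34), and Hmcn1 (-3.93). Dmd had 0.144, 0.507 and 0.0687 CPM in IgG IP and 40.52 and 44.59 CPM in WT total, and its mean was 0.312 CPM in IMP1 IP and 0.209 CPM in IMP2 IP.

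Giant-protein messages stood between the other pull-downs. Against IMP1 IP, 28 of the 32 tested were lower in IgG IP and the other 4 did not pass (median log2 fold change -0.37), while upper quartile scaling gave 4 higher and 24 lower. Against IMP2 IP, 32 of 32 were higher (median 1.15). The shares of all genes higher and lower were 31.9% and 31.7% against IMP1 IP, and 37.3% and 40.3% against IMP2 IP. They apply to the list counts below as well. Ahnak averaged 20151 CPM in IgG IP, 23997 CPM in IMP1 IP and 7437 CPM in IMP2 IP.

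Of 41 histone lysine methyltransferases and demethylases, 37 were higher and 2 lower (median log2 fold change 1.504), beside 43.4% and 44.1% of all genes tested. Kmt2d, a methyltransferase of enhancers, had 1208, 1202 and 1209 CPM in IgG IP and 30.77 and 33.21 CPM in WT total (5.42, SE 0.0826, adjusted p = 6.21e-11). Kmt2a (4.09), Kmt2c (3.55) and Nsd2 (3.48) followed, and the lower members were Kdm5d, which is Y-linked, and Kdm5b (-0.92). Against IMP1 IP, 7 of 40 were higher and 24 lower, or 15 and 17 with upper quartile scaling, and against IMP2 IP 32 were higher and 2 lower.

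Of 320 Zfp zinc finger genes, 180 were higher and 66 lower (median log2 fold change 0.58), where 43.4% of all genes tested were higher and 44.1% lower. In the other pull-down comparisons the balance moved with scaling, with 77 of 312 higher and 76 lower against IMP1 IP (139 and 37 with upper quartile scaling) and 145 higher and 43 lower against IMP2 IP (107 and 80 with total count scaling). Zfp871 was furthest above WT total among those at the level set for naming, with 255.2, 245.7 and 250.4 CPM in IgG IP and 4.27 and 5.46 CPM in WT total. Splicing factors of the SR and hnRNP families were higher in 23 of 38 and lower in 10 (median 0.38). Against IMP1 IP, 22 of 37 were higher and 7 lower, and against IMP2 IP 19 and 12, or 15 and 15 with total count scaling. Cell cycle genes were higher in 27 of 33 and lower in 3 (median 1.59, against -0.01 for all genes tested), with Cdk6 (5.04), Top2a (3.88) and Kif11 (3.81) furthest. Top2a, which untangles DNA, had 1004, 979.7 and 990.8 CPM in IgG IP and 82.34 and 71.58 CPM in WT total. Against IMP1 IP, 3 cell cycle genes were higher and 23 lower, and against IMP2 IP 5 and 25 of 33. With upper quartile scaling these were 8 and 16, and 5 and 19.

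Hox genes, which set position along the body axis, were mixed, with 11 of 35 higher and 15 lower (median log2 fold change -0.21), beside 43.4% and 44.1% of all genes tested. Hoxb6 (1.37) and Hoxb5 (1.33) were higher, and Hoxd13 (-2.86) and Hoxa10 (-1.45) lower, and with all 4 total RNA libraries in place of WT total 3 were higher and 3 lower (median 0.03). Against IMP1 IP, 21 of 32 Hox genes were higher and 1 lower, and against IMP2 IP 17 and 6. Immediate early genes, which respond to serum and stress, were higher in 3 of 21 and lower in 12 (median -0.96). Btg2 (-4.08), an antiproliferative gene, and Nr4a1 (-2.64), a nuclear receptor, were furthest below WT total. Against IMP1 IP, 9 of 20 were higher and 6 lower, and against IMP2 IP 2 and 9, which upper quartile scaling turned to 7 and 6.

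The longer the genomic span of a protein-coding gene, the more often it was higher in IgG IP, up to the longest class. Of 1390 genes under 5 kb, 264 were higher and 944 (67.9%) lower, and their median log2 fold change was -1.15. Between 50 and 100 kb, 57.6% of 1888 genes were higher and 29.8% lower (median 0.57), and over 100 kb, 57.3% of 1826 were higher and 31.1% lower (median 0.68). Against IMP1 IP the medians ran the other way, at 0.17 under 5 kb and -0.16 over 100 kb, and against IMP2 IP they were -0.49 and 0.24. Spans are those of RefSeq genes and include introns. Transcript lengths were not analysed here, and span goes with transcript length and intron content, whose part in the result was not tested.

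**Figure D4:**
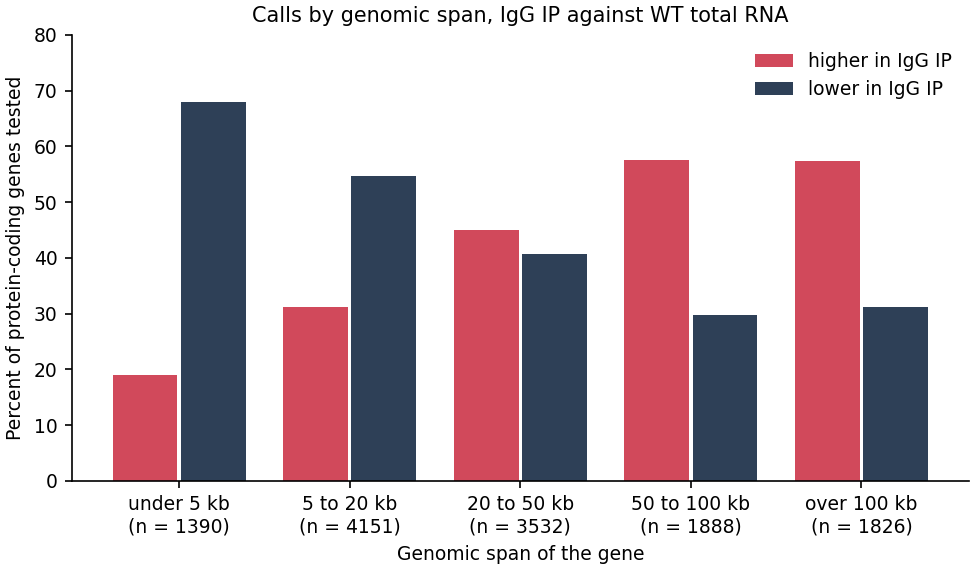
Percent of tested protein-coding genes (vertical axis) that were higher (red) or lower (dark blue) in IgG IP than in WT total, by genomic span in 5 classes (horizontal axis, with the number of genes). The lower share is 67.9% in the shortest class and 31.1% in the longest, where the higher share is 57.3%.

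Messages of energy metabolism and protein turnover were mostly lower. Of 82 nuclear-encoded genes of oxidative phosphorylation, 1 was higher and 78 lower (median log2 fold change -2.05), beside 43.4% and 44.1% of all genes tested. Of the 77 at the filter's level in both groups, 0 were higher and 74 lower. The list includes Cox6c2, which RefSeq classes as a pseudogene. Its summed level was 2494 to 2518 CPM in IgG IP and 8116 to 8797 CPM in WT total for the whole list. Cox4i1, a subunit of cytochrome oxidase, had 36.96, 35.98 and 34.16 CPM in IgG IP and 389.5 and 357.5 CPM in WT total (-3.20, SE 0.062, adjusted p = 1.52e-10). Mitochondrial ribosomal proteins were lower in 65 of 73 and higher in 4 (median -1.12), proteasome subunits lower in 31 of 35 and higher in 2 (median -1.13), and translation factors lower in 40 of 53 and higher in 8 (median -0.82). Psmd8, a proteasome lid subunit, had 47.31, 49.24 and 48.11 CPM in IgG IP and 525.6 and 393.7 CPM in WT total (-3.06, SE 0.102). Against IMP1 IP, mitochondrial ribosomal proteins were higher in 19 and lower in 9 of 71 and proteasome subunits higher in 5 and lower in 21 of 35, while translation factors, higher in 10 and lower in 23 of 50, turned to 19 and 13 with upper quartile scaling. Against IMP2 IP these lists were lower in 66, 34 and 42 genes. The 37 genes of the mitochondrial genome had 0 counts in all 5 libraries and could not be compared.

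Cytosolic ribosomal protein genes were lower in 50 of 78 and higher in 15 (median log2 fold change -1.13), beside 44.1% and 43.4% of all genes tested. Against IMP1 IP, 43 were higher and 5 lower, and against IMP2 IP 23 and 41. Rps26 had 15.89, 17.91 and 17.39 CPM in IgG IP and 247.3 and 212.5 CPM in WT total (-3.56, SE 0.081), while Rps28 (4.67) and Rpl35 (5.10), at 0.271 to 1.16 CPM in WT total, were higher in IgG IP. Their many processed copies share reads, and 39.95% of WT total records had no unique alignment, so the levels of this family are uncertain. The same holds for Gapdh, a glycolytic enzyme with many copies, at 25.45, 26.35 and 27.97 CPM in IgG IP and 3.39 and 3.54 CPM in WT total.

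Of 257 ribosomal protein pseudogenes by symbol, 41 passed the filter, 35 of them through WT total alone, and their summed level was 21.31 to 23.99 CPM in IgG IP and 1329 to 1493 CPM in WT total. Of all 814 RefSeq pseudogenes tested, 670 passed through WT total alone and 87 through IgG IP alone. Of the 55 at the filter's level in both groups, 6 were higher and 38 lower, beside 40.7% and 44.3% of all genes at that level. The class stood at 0.0452% to 0.0468% of gene counts in IgG IP and 0.985% to 1.11% in WT total. In the other pull-downs their share was 0.0225% to 0.0232% where IMP1 was pulled down, and 0.0317% to 0.0339% where IMP2 was.

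Extracellular matrix genes, whose proteins fibroblasts secrete, were lower in 42 of 48 and higher in 5 (median log2 fold change -1.60). All genes tested were lower in 44.1% and higher in 43.4%. The summed level of the matrix genes still came to 43405 to 43800 CPM in IgG IP, against 110286 to 134673 CPM in WT total. Col1a1, a chain of fibrillar collagen, had 3429, 3561 and 3542 CPM in IgG IP and 10750 and 14063 CPM in WT total (-1.64, SE 0.114, adjusted p = 4.34e-07). Col3a1, its partner in loose tissue, fell further, to 59.39, 61.06 and 56.98 CPM in IgG IP, against 2550 and 4408 CPM in WT total (-5.70, SE 0.213).

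Fn1, the fibronectin gene, was the most abundant matrix message of IgG IP, at 13202, 13153 and 12966 CPM in IgG IP and 16827 and 20370 CPM in WT total. Its log2 fold change of -0.32 (SE 0.101, adjusted p = 0.0133) lost the threshold without any 1 of the IgG IP libraries (adjusted p = 0.0759 to 0.11) and was -0.03 against all 4 total RNA libraries (adjusted p = 0.944). The matrix genes that were higher included Hspg2 (1.63) and Vcan (1.94), which encode large proteoglycans, and Col6a3 (1.82). Against IMP1 IP, 42 of 44 matrix genes tested in both pull-down comparisons were lower and 1 higher. Against IMP2 IP, 25 were higher and 14 lower.

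Actin cytoskeleton genes were lower in 31 of 39 and higher in 7 (median log2 fold change -1.96), beside 44.1% and 43.4% of all genes tested. Endoplasmic reticulum chaperones and translocon genes were lower in 22 of 29 and higher in 7 (median -0.90). Against IMP1 IP, 12 of 38 actin genes were higher and 13 lower (22 and 9 with upper quartile scaling) and 3 of 29 chaperone and translocon genes higher and 25 lower. Against IMP2 IP, 8 and 26 actin genes and 2 and 26 of the others were higher and lower. Tagln, a marker of contractile fibroblasts, had 89.16, 83.78 and 93.89 CPM in IgG IP and 5023 and 3333 CPM in WT total (-5.36, SE 0.151, adjusted p = 9.35e-10). Actg2 and Cnn1, smooth muscle genes, were lower by more (-10.02 and -7.41). Flnc (2.80) and Myh9 (2.68), both large actin-binding proteins, were higher.

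**Figure D5:**
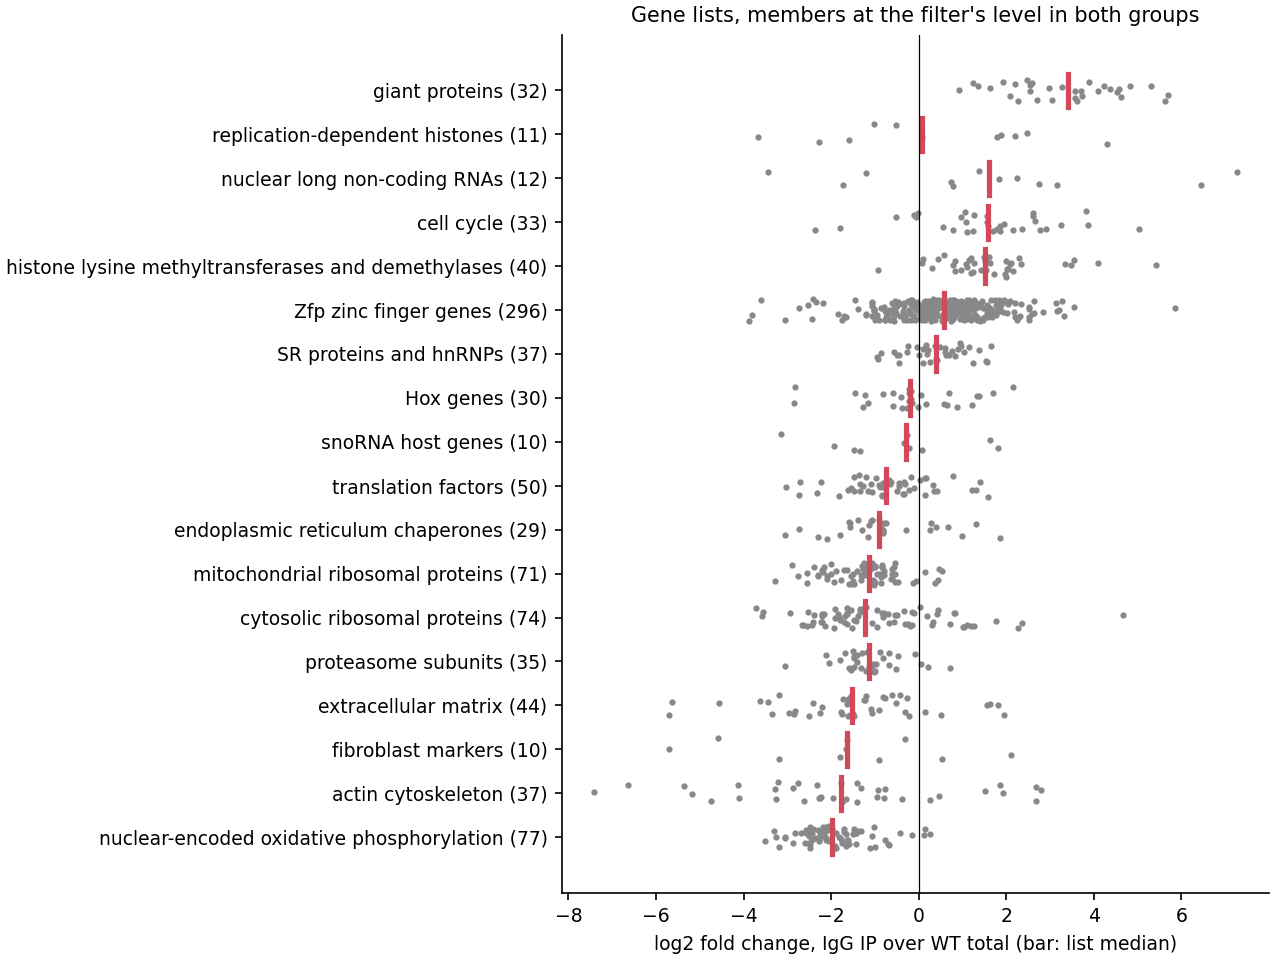
Log2 fold change of IgG IP over WT total (horizontal axis) of gene list members that reached the filter's level in both groups (grey points; rows are lists, with the number of such members), with their median as a red bar. Giant-protein genes lie to the right of 0 and most oxidative phosphorylation genes to the left, while the 11 histone genes lie on both sides.

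Of 12 fibroblast markers 12 passed the filter, 2 were higher and 10 lower (median log2 fold change -1.73), beside 43.4% and 44.1% of all genes tested. The sum of the markers was 23068 to 23379 CPM in IgG IP and 45210 to 56964 CPM in WT total. Vim and Pdgfra were well above the floor in IgG IP, at 1381 to 1428 CPM and 292.8 to 306.8 CPM. Thy1, a surface protein of fibroblasts, had 19.05, 25.42 and 24.19 CPM in IgG IP and 556.9 and 680.6 CPM in WT total (-4.57, SE 0.131). Lum, a matrix proteoglycan, had 1 count in the IgG IP libraries together against 42.42 and 79.59 CPM in WT total. Lum averaged 0 CPM in IMP1 IP and 0.0472 CPM in IMP2 IP, and Thy1 15.28 and 70.77 CPM. Against IMP1 IP, 2 of 10 markers were higher in IgG IP and 8 lower, and against IMP2 IP 4 and 4. In bulk samples, fewer cells of a type and less RNA per cell cannot be told apart.

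Markers of other cell types were low in both groups, with exceptions. Skeletal muscle markers summed to 1.27 to 2.01 CPM in IgG IP and 122.1 to 345.7 CPM in WT total, mostly from Acta1, at 0.431, 0.169 and 0.344 CPM in IgG IP and 322.2 and 101.0 CPM in WT total. Of the chondrocyte markers, Col2a1, the cartilage collagen, was at 1.87 to 2.79 CPM in IgG IP and 340.5 and 157.7 CPM in WT total, and Sox9, a cartilage transcription factor, was at 114.5, 114.4 and 110.2 CPM in IgG IP and 21.75 and 21.25 CPM in WT total.

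Neural, endothelial and macrophage markers had sums of 68.66 to 75.57, 21.62 to 23.09 and 19.93 to 20.76 CPM in IgG IP and 85.79 to 116.7, 35.98 to 37.56 and 27.17 to 35.41 CPM in WT total. Members moved both ways within these sums. Of 4 neural markers tested, 1 was higher and 3 lower, beside 43.4% and 44.1% of all genes tested. Endothelial markers were 2 higher and 2 lower of 4, and macrophage markers 2 and 3 of 6. Map2 averaged 67.49 CPM in IgG IP and 20.83 CPM in WT total, Tubb3 4.25 and 35.42 CPM, and Stmn2 0.0698 and 43.81 CPM. Epithelial markers summed to 0.929 to 1.24 CPM in IgG IP and 13.06 to 40.59 CPM in WT total, mostly Krt19. B cell markers summed to 0.0845 to 0.481 CPM in IgG IP and 1.15 to 1.39 CPM in WT total. Of the erythroid markers, Alas2 alone was tested, through its level in IgG IP, at 3.78 to 4.31 CPM in IgG IP and 0 to 0.116 CPM in WT total, while 7 of the 9 erythroid markers had 0 counts in all 5 libraries. The part of other cells in the gene-group results was not tested.

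Beside the small and nuclear RNAs, the genes furthest above WT total included protein-coding ones. Rorb, a nuclear receptor, had 164.2, 154.7 and 160.7 CPM in IgG IP and 0.136 and 0.232 CPM in WT total (log2 fold change 9.85). Tbx20 (7.55), a cardiac transcription factor, Neurl1b (7.52), a ubiquitin ligase, Ppargc1a (7.45), a coactivator of mitochondrial genes, and Lonrf3 were similar. Lonrf3, a RING finger gene, was 289-fold higher (95% counting interval 98.7 to 1400, from 3 counts in WT total). Rorb, Tbx20, Ppargc1a and Lonrf3 passed the filter through IgG IP alone, so the filter itself favoured their difference. All of these protein-coding genes were present in the other pull-downs. Means were 110.3 CPM for Rorb and 113.5 CPM for Neurl1b in IMP1 IP, and 113.3 CPM and 183.8 CPM in IMP2 IP.

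The 12 genes furthest below WT total were at or near 0 in every pull-down. They passed the filter through WT total alone, so the filter itself favoured their difference. Cxcl14, a chemokine, had 0 counts in all IgG IP libraries and 577.9 and 995.6 CPM in WT total, at least 10800-fold lower against a floor of 3 counts over the group. Igfbp2, an insulin-like growth factor binding protein, was at least 5410-fold lower, Cthrc1, a matrix protein, at least 1850-fold, Gjb2, a gap junction protein, at least 1800-fold, and Eln, the elastin gene, at least 1400-fold. Rgs16, Tnmd and Ptgis were at least 858-fold, 759-fold and 741-fold lower. Gpc3, Atp9a and Lum had 1 count each in IgG IP, for ratios of 3820 (95% counting interval 686 to 151000), 2820 (505 to 111000) and 2520 (451 to 99400).

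Igf2, the fetal growth factor whose message names the IMP family, is 1 of these 12. It had 0.216, 0.507 and 0.619 CPM in IgG IP and 1635 and 501.8 CPM in WT total (log2 fold change -11.00). H19, the imprinted RNA beside it, had 1.01, 2.37 and 1.93 CPM in IgG IP and 1599 and 2086 CPM in WT total (-9.86). Igf2 averaged 0.163 CPM in IMP1 IP and 0.879 CPM in IMP2 IP, and each of the 12 lowest genes was under 1 CPM in both. These genes separated all 9 IP libraries from WT total, as the Y-linked genes did.

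The messages of the IMP family were themselves in the background. Igf2bp1 had 152.9, 153.0 and 154.4 CPM in IgG IP and 32.26 and 23.45 CPM in WT total (log2 fold change 2.66, SE 0.107, adjusted p = 8.71e-09). Igf2bp2 had 91.89, 89.78 and 93.14 CPM in IgG IP and 168.3 and 145.8 CPM in WT total (-0.59, SE 0.0642, adjusted p = 1.3e-05), and was at -0.17 (adjusted p = 0.773) when the knockout total RNA libraries, 1 of them labelled as lacking IMP2, were added to WT total. Igf2bp3 had 15.6, 14.02 and 13.82 CPM in IgG IP and 30.83 and 28.85 CPM in WT total (-0.85, SE 0.0925), and did not pass with those libraries added (adjusted p = 0.0686).

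Over all genes, the levels of IgG IP followed those of the other pull-downs more closely than those of WT total. Across 15578 genes, Pearson's r of mean log2(CPM + 1) was 0.754 between IgG IP and WT total, 0.985 between IgG IP and IMP1 IP and 0.969 between IgG IP and IMP2 IP. WT total had an r of 0.776 with IMP1 IP and 0.835 with IMP2 IP. These values describe genes that share libraries and depth. The filter used only IgG IP and WT total, and genes that passed through 1 of these groups lower the r between them. In IgG IP, 4491 genes were higher and 4457 lower than in IMP1 IP, of which 1740 and 82 at least 2-fold. Against IMP2 IP, 5253 were higher and 5674 lower, 2298 and 568 of them at least 2-fold. The split depended on scaling. The share of calls that were higher was 50.2% against IMP1 IP, or 68.4% (6391 higher, 2952 lower) with upper quartile and 66.7% with total count scaling. Against IMP2 IP it was 48.1%, or 60.1% with upper quartile and 37.8% (4238 higher, 6987 lower) with total count scaling. Oxidative phosphorylation genes, lower than in WT total, were higher in 29 and lower in 13 of 78 against IMP1 IP, and higher in 3 and lower in 69 of 78 against IMP2 IP.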

How the data were processed

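Each library had a deposited file of raw read counts, whole numbers listed by Ensembl gene ID. Per the labels' protocols, RNA was purified with a QIAGEN kit and libraries followed Illumina's TruSeq procedure. Reads were handled with STAR and HTSeq on mm10, per the submitters' processing notes. Versions, settings and strand use are not given in the sources used here. The 5 tally lines were kept apart from the 43629 genes. Symbols were found for 42462 IDs, and 32733 genes had an entry in RefSeq's GRCm38.p6 gene table, the source of classes and spans. No transcript lengths or genome were used.

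The 3 IgG IP and 2 WT total libraries were compared in edgeR 4.0.16 under R 4.3.3 (TMM, default expression filter at about 0.687 CPM in 2 libraries, quasi-likelihood, 2-sided, Benjamini-Hochberg over all genes, adjusted p under 0.05). Log2 fold changes are IgG IP over the other group. Those over WT total sit 0.187 above plain CPM ratios. Those over IMP1 IP and IMP2 IP were scaled in their own fit, and this offset does not apply to them. Common biological variation was 7.44%, with 3 residual degrees of freedom. Gene counts were 11840189 to 17225308 per library. Bounds against 0 counts use 3 counts over the group, and ratios with 1 to 3 counts have exact 95% intervals. IgG IP was also compared with IMP1 IP and IMP2 IP in a fit of the 9 IP libraries, added after the data were seen.

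With simulated counts, the test found 84% of 50 genes altered 1.5-fold and 100% of those altered 2-fold, 4-fold or 8-fold. It called 10 of 15378 genes left unaltered. Few genes were altered and every gene was given the common variation, whereas in the data most genes differed. The simulation therefore does not measure error rates or the scaling in these data. Tally shares were tested by exact permutation. Figures used matplotlib 3.10.9.

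Named genes are the 15 with the most reads in IgG IP, the 12 highest and 12 lowest fold changes (average log2 CPM of at least 4, no overlap, no predicted genes or pseudogenes), the IMP family, and leading members of each list (average log2 CPM of at least 3). Other genes were picked for naming with their values known. The comparison and the 33 gene lists were chosen with earlier results of these data known. Alternatives were other scalings, filters and tools, a 2-fold minimum, other library sets and each library left out.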

Additional observations from a re-analysis of the deposited data

How the results depend on the processing

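Against WT total, the counts of 6763 higher and 6875 lower genes stayed within 1.5 times under DESeq2 size factors, upper quartile and total count scaling, no filter, DESeq2's Wald test (6584 and 6522), limma voom, the collectors left out, all 13 libraries in 1 fit, all 4 total RNA libraries (5469 and 5870) and each library left out (6291 to 7266 higher, 6599 to 7203 lower). A 2-fold minimum gave 4455 and 4345, and a filter of 10 CPM in 2 libraries left 9990 genes to test, with 4346 higher. Of 13157 calls also tested with all 4 total RNA libraries, 11220 were kept and 159 had the opposite sign. Of 132 genes named by rule, none changed direction where it could be tested, which was 128 with 4 total RNA libraries and 131 under the 10 CPM filter. Some lost the threshold, 7 under the 2-fold minimum, 10 with 4 total RNA libraries (among them Flt1, Sox9, Actb and Hox genes) and 1, Fn1, without each IgG IP library. The share of records assigned to no annotated feature was 20.03 percentage points higher in IgG IP, or 22.1 over uniquely aligned records.

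Replicate numbers did not pair the pull-downs (correlations of deviations from -0.058 to 0.073). With the replicate block, 4523 genes were higher and 4494 lower than in IMP1 IP, and 5262 and 5699 than in IMP2 IP. Against IMP1 IP, upper quartile scaling left 2952 lower genes. Depth limits statements on genes under about 0.25 CPM, and 387 tested genes had 0 counts in IgG IP and 653 in WT total.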
